A study of Mus musculus with 6 samples.

Results

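The motile cilium is a beating hair of ependymal, airway and other multiciliated cells and, as the flagellum, of sperm. Its core, the axoneme, is a ring of doublet microtubules around a central pair. Outer and inner dynein arms on each doublet are the motors that slide the doublets, radial spokes and the central pair regulate them, the nexin-dynein regulatory complex links neighbouring doublets, and tektins and other proteins line the inside of the doublets. The genes are switched on together by the transcription factor FOXJ1 and by RFX factors when a cell makes motile cilia, and ependymal cells of the brain ventricles, the fourth ventricle under the cerebellum included, carry such cilia. Astroglial precursors carry at most a single non-motile primary cilium, which lacks dynein arms, radial spokes and a central pair.

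The genes described are 53 names of axonemal dyneins, radial spoke, central pair, regulatory complex and tektin genes and genes linked to them, taken as every non-control probe of the array that carries one of these names. Of the 53 names, 51 were on the array with 84 probes, among 55681 probes and 22375 genes in all. The 6 samples are cells sorted with magnetic beads from the neonatal cerebellum of wild-type CD1 mice, labelled as postnatal day 1 to 3, with 50000 cells a sample and cerebella of either sex pooled. Strain and age are those of the labels, whereas the study's methods give P0/P1 for the array samples and a C57BL/6 background for wild-type mice. A+/G+ cells (3 samples) carry the astrocyte surface antigen ACSA-2, an epitope of the ATP1B2 subunit of the sodium pump, and GLAST, the glutamate transporter Slc1a3. A-/G+ cells (3 samples) carry GLAST and lack ACSA-2. The fractions were not made in the same way: A+/G+ cells were taken by a single positive selection for ACSA-2, which also keeps the rare ACSA-2+/GLAST- cells, whereas A-/G+ cells were first depleted of cells with L1CAM, ACSA-2, CD45, PSA-NCAM or Ter119 and then selected for GLAST. No sample carried a mutation or a treatment, and the labels do not say whether the replicates came from separate litters, so p-values measure only the spread between these samples.

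The arrays were 1-colour Agilent mouse arrays with probes of 60 bases. Values are log2 intensities after quantile normalization, a gene stands for its probe with the highest mean over the 6 arrays, and values of a fraction are given in the order of replicates 1, 2 and 3. A difference is the A+/G+ mean minus the A-/G+ mean on this scale, with its standard error from limma. A gene was called when its adjusted p in limma (Benjamini-Hochberg over all 55681 probes) was no higher than 0.05 and the 2 fraction medians lay at least 4-fold apart. Slc1a3 lay at 13.39 ± 0.19 (log2, SD, n = 3) in A+/G+ and 14.59 ± 0.51 in A-/G+, and Atp1b2 at 12.82 ± 0.14 and 10.66 ± 0.31, a difference of 2.16 ± 0.18 with an adjusted p of 0.00730 in limma. All 9 astroglial markers examined exceeded background clearly on every array. The A+/G+ arrays shared 1 slide and the A-/G+ arrays another, so differences between slides and between fractions cannot be told apart, and the A-/G+ arrays were dimmer: their 75th percentile intensity before normalization ran from 55.9 to 249.7, against 329 to 332 in A+/G+, and 18331 to 24726 of their probes were well above background, against 26469 to 26653. An exact permutation test of 3 against 3 samples cannot give a two-sided p below 0.1.

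The axoneme genes were higher in A+/G+ than in A-/G+ as a group. The members were chosen with earlier results of these data known, so the shares below describe this list and are no independent support. Of the 51 genes, 22 (43.1%) were called toward A+/G+ and 0 toward A-/G+, where 2.77% of all genes were called toward A+/G+ and 0.42% toward A-/G+. By probe, 30 of 84 were called toward A+/G+ and 0 toward A-/G+, beside 1.53% and 0.399% of all probes. At an unadjusted p under 0.05 there were 40 member genes toward A+/G+ and 0 toward A-/G+, beside 3829 and 3088 of all 22375 genes. The methods' t-test called fewer, with 9 member genes toward A+/G+ and 0 toward A-/G+. By probe it called 13 members toward A+/G+ and 0 toward A-/G+, beside 487 and 121 of all probes. With the adjusted p alone, 28 genes passed, where 7.89% of all genes did. The mean was higher in A+/G+ for 48 of 51 genes, and for 41 of them every A+/G+ array lay above every A-/G+ array, beside 20.1% of all genes. The median difference over the 51 genes was 2.47, with a range from -0.25 to 6.01 as measured, and over all genes it was -0.03. In RNA from whole fractions, more cells with motile cilia and more of these RNAs in each cell cannot be told apart.

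The calls depended on single arrays. Without A+/G+ replicate 1, 2 or 3 the count of called genes was 6, 6 and 5, against 22 with all 6 arrays. Without A-/G+ replicate 1, 2 or 3 it was 11, 14 and 30. Calls over all probes toward A+/G+ changed too, from 851 to 394, 340 and 351 without A+/G+ replicate 1, 2 or 3. Without A-/G+ replicate 1, 2 or 3 they were 669, 596 and 1458. Dnah5, Spag17, Spef2, Fam216b and Fam227b kept their call in all 6 omissions. When arrays were scaled to their 75th percentile and not quantile normalized, the median of all genes moved to -0.34, the calls over all probes split into 604 toward A+/G+ and 938 toward A-/G+ in place of 851 and 222, and 24 member genes were called toward A+/G+ and 0 toward A-/G+.

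The level of background bounded many of the differences. On each of the 3 A+/G+ arrays 49 of the 51 members were well above background, whereas on A-/G+ replicates 1, 2 and 3 there were 21, 24 and 41. For 8 members no A-/G+ array was well above background while all 3 A+/G+ arrays were, and with these 8 differences set to their lower bounds the median over the 51 genes was 2.26. In other members some A-/G+ arrays were at background, and there the difference as measured includes signals that are only limits. With every signal not well above background raised to the lowest signal above background on its array, a setting chosen after seeing the data and called the floor below, the median over the 51 genes was 1.71, and 18 of the 22 called genes kept medians at least 4-fold apart (a value with no test). The 20 members well above background on all 6 arrays had a median difference of 2.37, 10 of them (50%) were called higher in A+/G+ and for 16 the arrays did not overlap. Among all 10962 genes measured on all 6 arrays, 1.57% were called higher in A+/G+ and the median difference was -0.05. For 2556 of these 10962 genes every A+/G+ array lay above every A-/G+ array. The median level of these 20 members was 9.61, 9.72 and 10.25 in A+/G+ and 7.32, 7.39 and 7.83 in A-/G+. Within each fraction replicate 3 tended to be the highest: 44 of the 51 members were highest there among the A+/G+ arrays and 33 among the A-/G+ arrays.

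**Figure D1:**
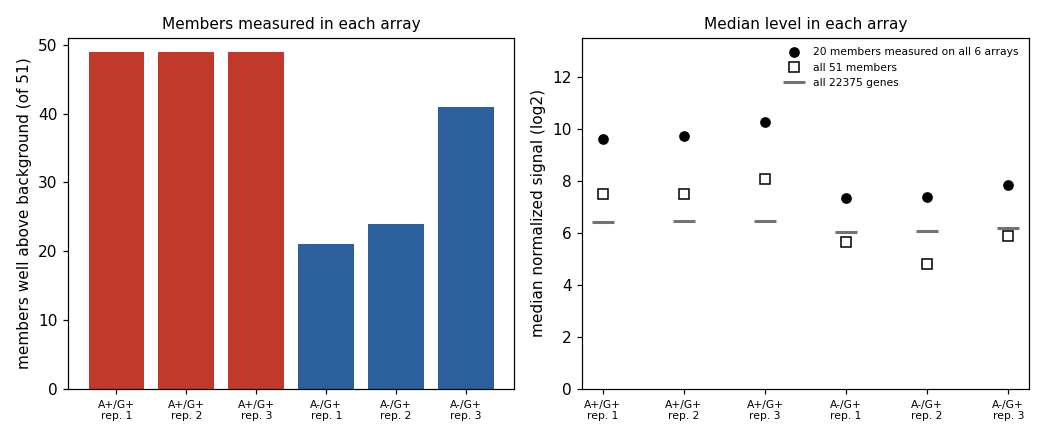
Left, bars give the number of the 51 members well above background in each array. Right, points give the median normalized signal (log2) of all 51 members, of the 20 members measured on all 6 arrays and of all 22375 genes in each array. All A+/G+ arrays have 49 members above background and A-/G+ arrays 21, 24 and 41, and the medians of the 20 members run from 9.61 to 10.25 in A+/G+ and from 7.32 to 7.83 in A-/G+. The lowest signal above background was higher on the A-/G+ arrays (5.72, 4.95 and 4.03) than on the A+/G+ arrays (3.52, 3.59 and 3.61).

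**Figure D2:**
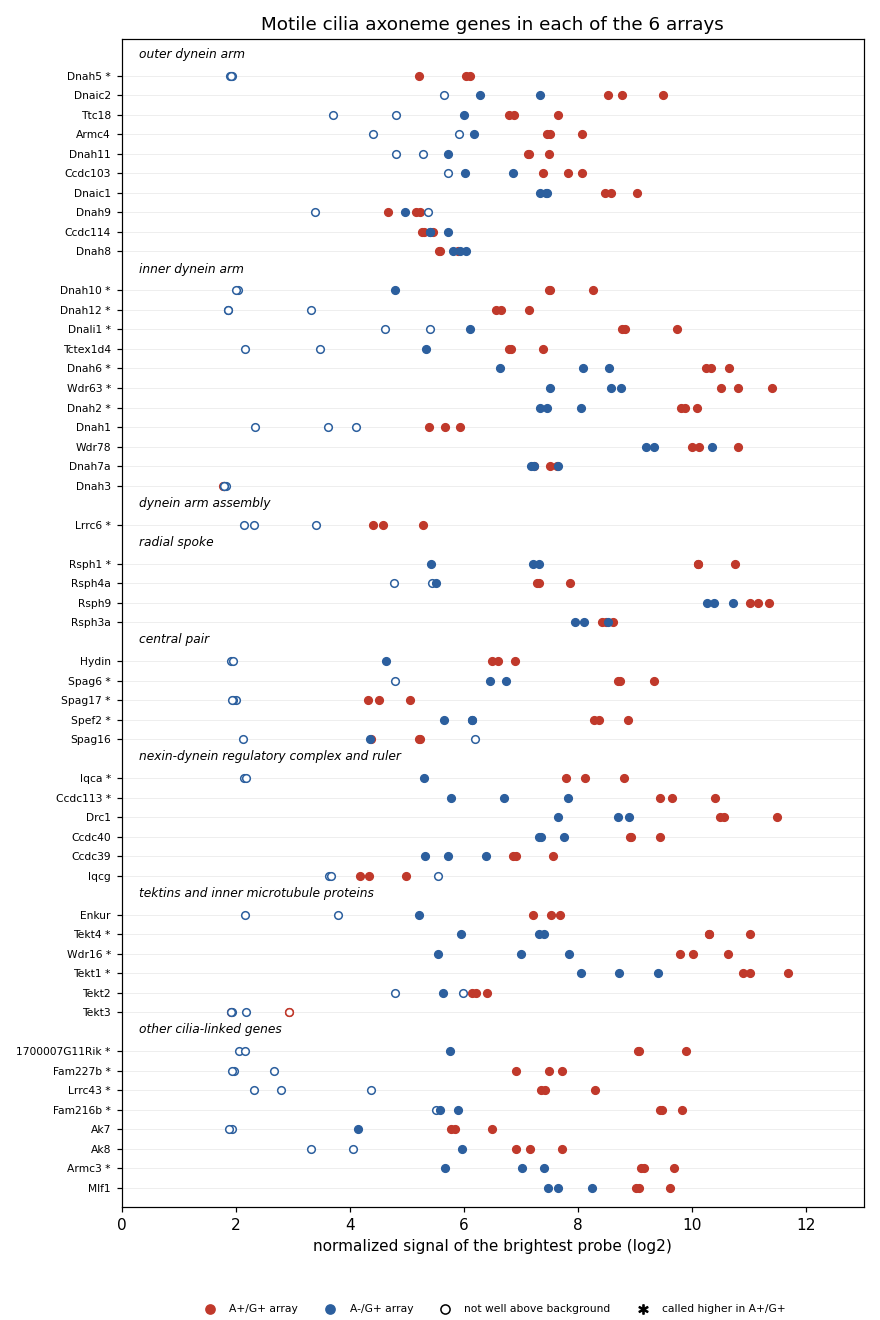
Normalized signal (log2, horizontal axis) of the brightest probe of each of the 51 members in the 6 arrays, by part of the axoneme. Red points are A+/G+ arrays, blue points A-/G+ arrays, open points were not well above background, and an asterisk marks the 22 genes called higher in A+/G+. For 41 genes all 3 red points lie to the right of all 3 blue points.

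The outer dynein arm, which supplies most of the beating force, had 1 called gene among the 10 on the array, and a median difference of 1.77. The called gene was Dnah5, an outer arm heavy chain, with 5.22, 6.03 and 6.10 in A+/G+ and 1.91, 1.94 and 1.91 in A-/G+. None of the A-/G+ arrays was well above background for it, so the change is at least 1.84-fold (adjusted p = 0.00479, limma, measured means 5.78 and 1.92). The heavy chain Dnah11 passed the p limit and not the fold limit, with 7.14, 7.12 and 7.49 against 5.28, 4.81 and 5.72 (difference 1.98 ± 0.26, adjusted p = 0.0186 in limma, 1 A-/G+ array above background, 1.79 at the floor). The intermediate chain Dnaic1, measured on all 6 arrays, did likewise with 8.57, 8.47 and 9.04 against 7.32, 7.44 and 7.45 (difference 1.29 ± 0.17, adjusted p = 0.0178 in limma). Both chains were thus higher in A+/G+ without overlap but by less than 4-fold in the medians.

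The other outer arm genes did not pass the p limit. The intermediate chain Dnaic2 lay closest, with 8.53, 8.77 and 9.48 against 5.66, 6.28 and 7.34 and an adjusted p of 0.0502 in limma. The docking protein Armc4 had 7.50, 7.45 and 8.07 against 5.90, 4.40 and 6.17, and Ttc18 (now Cfap70), a protein at the base of the arm, 6.88, 6.79 and 7.64 against 4.81, 3.71 and 6.0. Ccdc103, which is needed to attach the arms, had 7.38, 7.83 and 8.07 against 5.72, 6.03 and 6.85. In these 4 genes every A+/G+ array lay above every A-/G+ array. In contrast the arrays overlapped for the heavy chains Dnah9 and Dnah8 and the docking protein Ccdc114. Dnah9 had 5.24, 4.67 and 5.16 against 5.37, 3.39 and 4.96, with 1 A-/G+ array above background. Dnah8, a heavy chain known from sperm, was above background on all 6 arrays with 5.57, 5.56 and 5.89 against 6.03, 5.94 and 5.80 (difference -0.25 ± 0.12, adjusted p = 0.324 in limma). Ccdc114 had 5.30, 5.46 and 5.27 against 5.41, 5.72 and 5.41. Dnah8 and Ccdc114 are, with Dnah3, the 3 members whose mean was higher in A-/G+, none of them beyond the spread between arrays.

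Of the inner dynein arm genes, 6 of 11 were called, with a median difference of 2.62. The heavy chain Dnah2 was measured on all 6 arrays with 9.88, 9.80 and 10.09 against 7.32, 7.45 and 8.05, a 5.38-fold change of the medians (difference 2.31 ± 0.22, adjusted p = 0.00932 in limma). Dnah6 had 10.24, 10.33 and 10.65 against 8.08, 6.62 and 8.54, a 4.77-fold change with an adjusted p of 0.0477 in limma. The intermediate chain Wdr63 had 10.50, 10.80 and 11.39 against 8.75, 7.51 and 8.57 and a 4.67-fold change (adjusted p = 0.0289 in limma). All 3 were bright in both fractions by these probes, so that these differences do not rest on arrays at background. The other Wdr63 probe was also called, with 1 A-/G+ array above background and medians 13.7-fold apart as measured. The other Dnah6 probe was well above background on no array.

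In the other called inner arm genes the A-/G+ arrays were mostly dim. Dnah10 had 7.51, 7.49 and 8.25 against 2.04, 2.01 and 4.79, with only A-/G+ replicate 3 above background there (difference 4.80 ± 0.86 as measured and 2.59 at the floor, adjusted p = 0.0371 in limma). The light intermediate chain Dnali1 had 8.82, 8.77 and 9.73 against 5.41, 4.62 and 6.11, again with only replicate 3 above background in A-/G+, and the medians were 10.6-fold apart as measured and 8.57-fold at the floor (adjusted p = 0.0175 in limma). Dnah12 had 6.56, 6.65 and 7.14 against 1.87, 1.87 and 3.32, with no A-/G+ array above background, and the change is at least 3.69-fold (adjusted p = 0.0115 in limma, measured means 6.79 and 2.35). Among the 5 inner arm genes not called, Tctex1d4, a light chain, had 6.80, 6.82 and 7.38 against 3.47, 2.16 and 5.33, and Dnah1 5.39, 5.67 and 5.93 against 2.33, 4.11 and 3.63, both without overlap. Wdr78, an intermediate chain, overlapped with 9.99, 10.11 and 10.80 against 10.35, 9.32 and 9.19. Dnah7a, whose copies Dnah7b and Dnah7c are so alike that their signals may mix, had 7.22, 7.51 and 7.63 against 7.18, 7.66 and 7.23 (difference 0.09 ± 0.18), and Dnah3 was well above background on no array.

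Of the 2 assembly factors, which preassemble dynein arms in the cytoplasm, Lrrc6 was called with 4.40, 4.58 and 5.28 against 3.41, 2.31 and 2.14 (adjusted p = 0.0492 in limma), with no A-/G+ array above background. A fold is not given for it because its bound is under 1. Lrrc50 had no probe of that name, and the probe under its present name Dnaaf1 had 3.77, 3.74 and 4.66 against 2.12, 6.26 and 2.03, with an adjusted p of 0.80 in limma. Likewise Dnalc1, an outer arm light chain, had no probe of that name, and the probe of Dnal1 was well above background on no array.

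Of the radial spoke genes, 1 of 4 was called. Rsph1, a spoke head protein measured on all 6 arrays, had 10.09, 10.10 and 10.75 against 7.20, 5.42 and 7.32, and the medians were 7.47-fold apart (difference 3.67 ± 0.59, adjusted p = 0.0283 in limma). The head protein Rsph4a passed the p limit only, with 7.29, 7.32 and 7.85 against 5.44, 4.78 and 5.52 (adjusted p = 0.0153 in limma), and its other probe was called. The head protein Rsph9 was bright in both fractions, with 11.02, 11.15 and 11.35 against 10.39, 10.26 and 10.71, did not overlap and missed the p limit (difference 0.72 ± 0.16, adjusted p = 0.0572 in limma). Rsph3a, a stalk protein with a near-identical copy Rsph3b, overlapped with 8.42, 8.49 and 8.61 against 7.95, 8.53 and 8.10.

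In the central pair, 3 of 5 genes were called. Spef2 was measured on all 6 arrays with 8.36, 8.28 and 8.87 against 6.14, 5.65 and 6.15, a 4.66-fold change (difference 2.53 ± 0.23, adjusted p = 0.00824 in limma). Spag6, whose probe lies on chromosome 16 where the annotation now places the copy Spag6l, had 8.71, 8.73 and 9.33 against 6.45, 4.79 and 6.73 (adjusted p = 0.0457 in limma, 2 A-/G+ arrays above background). Spag17 had 4.32, 4.50 and 5.05 against 2.00, 1.95 and 1.93 with no A-/G+ array above background, so no fold is given (adjusted p = 0.00608 in limma). Hydin, a very large central pair protein, had 6.49, 6.60 and 6.89 against 1.92, 1.96 and 4.63 and missed the p limit (difference 3.82 ± 0.82 as measured and 1.56 at the floor, adjusted p = 0.0553 in limma). Replicate 3 was its only A-/G+ array above background. Spag16 overlapped by its brightest probe and is described with its probes.

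In the nexin-dynein regulatory complex and the ruler that sets the spacing of arms and spokes, 2 of 6 genes were called. Iqca, a regulatory complex protein, had 7.79, 8.12 and 8.80 against 2.15, 2.19 and 5.30, with only A-/G+ replicate 3 above background (difference 5.02 ± 0.98 as measured and 2.91 at the floor, adjusted p = 0.0445 in limma). Ccdc113 was measured on all 6 arrays with 9.44, 9.64 and 10.41 against 6.71, 5.76 and 7.82, a 7.65-fold change (adjusted p = 0.0447 in limma). Drc1, which builds the base of the complex, had 10.49, 10.56 and 11.48 against 8.70, 7.65 and 8.89 and medians 3.62-fold apart (adjusted p = 0.0406 in limma). The ruler proteins Ccdc39 and Ccdc40 were measured on all 6 arrays, and both lay below the fold limit. Ccdc40 had 8.90, 8.92 and 9.44 against 7.32, 7.34 and 7.74 and passed the p limit (difference 1.62 ± 0.20, adjusted p = 0.0168 in limma), and Ccdc39 had 6.87, 6.92 and 7.56 against 6.38, 5.31 and 5.72 (adjusted p = 0.0911 in limma). Iqcg, another complex protein, overlapped with 4.18, 4.33 and 4.98 against 5.54, 3.64 and 3.66 and no A-/G+ array above background.

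Of the tektins and inner microtubule proteins, 3 of 6 were called, all 3 measured on all 6 arrays. Tekt1 had 10.88, 11.02 and 11.67 against 8.72, 8.06 and 9.39, a 4.93-fold change (difference 2.47 ± 0.41, adjusted p = 0.0313 in limma). Tekt4 had 10.29, 10.30 and 11.02 against 7.31, 5.95 and 7.40, a 7.95-fold change (difference 3.65 ± 0.48, adjusted p = 0.0179 in limma). Wdr16 (now Cfap52) had 9.78, 10.01 and 10.62 against 7.0, 5.55 and 7.85 and an 8.03-fold change (adjusted p = 0.0438 in limma). In all 3, every A+/G+ array was more than 1 log2 unit above the highest A-/G+ array. Enkur missed the p limit with 7.21, 7.53 and 7.69 against 2.15, 3.79 and 5.22 (difference 3.76 ± 0.81 as measured and 2.18 at the floor, adjusted p = 0.0564 in limma). Tekt2 did not overlap but differed by only 0.78 ± 0.33 (6.40, 6.14 and 6.21 against 5.99, 4.80 and 5.63, adjusted p = 0.250 in limma), and Tekt3, a tektin best known from sperm, was well above background on no array.

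Of the 8 other genes linked to cilia, 5 were called, with a median difference of 3.65. 1700007G11Rik (now Cfap299) had 9.04, 9.07 and 9.88 against 2.05, 2.16 and 5.75 (difference 6.01 ± 1.12 as measured, adjusted p = 0.0405 in limma). Only replicate 3 of its A-/G+ arrays was above background, so that the measured difference rests on 2 arrays at background, and at the floor it was 3.86, beside 3.84 for Fam216b, 3.67 for Rsph1 and 3.65 for Tekt4. The call was lost without any 1 of A+/G+ replicates 1 to 3 or A-/G+ replicates 1 and 2. Fam227b had 7.72, 6.92 and 7.49 against 1.98, 1.94 and 2.67, with no A-/G+ array above background, and the change is at least 5.56-fold (adjusted p = 0.00390 in limma, measured means 7.38 and 2.20). Lrrc43 had 7.35, 7.42 and 8.30 against 2.32, 2.80 and 4.37 with a change of at least 6.38-fold (adjusted p = 0.0201 in limma, measured means 7.69 and 3.16). For both genes the A-/G+ signal of the brightest probe was not well above background, so by this probe the size of the change is known only as the bound. The other Lrrc43 probe, also called, had 7.65, 7.73 and 8.54 against 1.77, 1.79 and 4.90, with 1 A-/G+ array above background (adjusted p = 0.0412 in limma). Fam216b had the smallest adjusted p of the members, with 9.47, 9.43 and 9.82 against 5.50, 5.58 and 5.90, a 14.9-fold change of the medians, or 13.4-fold at the floor (difference 3.91 ± 0.16, adjusted p = 0.00280 in limma, 2 A-/G+ arrays above background). Armc3 was measured on all 6 arrays with 9.09, 9.16 and 9.69 against 7.41, 5.66 and 7.02, a 4.39-fold change (adjusted p = 0.0439 in limma), and was the only called gene to lose its call in each of the 6 omissions. Mlf1 passed the p limit only, with 9.07, 9.02 and 9.62 against 7.65, 7.47 and 8.24 (adjusted p = 0.0417 in limma). The adenylate kinases Ak7 and Ak8, which recycle nucleotides in the cilium, did not overlap and were not called. Ak7 had 5.85, 5.78 and 6.49 against 1.93, 1.87 and 4.14 (adjusted p = 0.0520 in limma), and Ak8 had 6.91, 7.16 and 7.71 against 4.06, 3.32 and 5.96 (adjusted p = 0.0900 in limma).

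Where a gene had several probes, they did not always give the same answer. Of the 23 members with more than 1 probe, every probe was called in 5, some in 9 and none in 9. The probe with the highest mean was not the called one for Rsph4a and Spag16, so 24 genes had some probe called. Spag16 gave the widest disagreement among its 4 probes, which are shown here as the array holds them because a different stretch of the same gene gave a different result.
Spag16 probe 1, chr1:69943088-69943147 (mm9, + strand): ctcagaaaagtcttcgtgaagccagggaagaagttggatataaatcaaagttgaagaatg
Spag16 probe 2, chr1:69972449-69972508 (mm9, + strand): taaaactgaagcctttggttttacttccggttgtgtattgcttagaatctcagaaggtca
Spag16 probe 3, chr1:70327387-70327446 (mm9, + strand): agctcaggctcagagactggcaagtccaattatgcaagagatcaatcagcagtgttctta
Spag16 probe 4, chr1:70771373-70771432 (mm9, + strand): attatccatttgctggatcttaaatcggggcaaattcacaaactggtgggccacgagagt
Probe 4, nearest the 3′ end, was called higher in A+/G+ with 5.82, 6.01 and 6.88 against 1.98, 1.94 and 2.81, with no A-/G+ array above background, and the change is at least 2.52-fold (adjusted p = 0.00981 in limma). Probe 1 had 4.60, 4.72 and 5.24 against 2.35, 4.05 and 3.75, and probe 2, the brightest on average, 4.37, 5.24 and 5.20 against 6.20, 2.13 and 4.35. Probe 3 went the other way, with 2.15, 2.60 and 2.86 against 6.82, 5.33 and 3.17 (difference -2.57 ± 0.97 as measured, adjusted p = 0.205 in limma). It was above background on 2 A-/G+ arrays and no A+/G+ array. No bound is given for it because A-/G+ replicate 3 was itself not above background. Without A-/G+ replicate 3 it was called higher in A-/G+ (adjusted p = 0.0286 in limma).

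Probes near the 3′ end of a gene and probes near its 5′ end were not called equally often. In 17 members the outermost probes lay at least 1 kb apart in the genome, and of these the probe nearest the 3′ end was called in 8 and the probe nearest the 5′ end in 2. The 3′ probe was well above background on no array in 3 of the 17 and the 5′ probe in 7. The RNA was amplified from its poly(A) tail, and the part of this step in the probes' results was not tested. The probes of Dnah12 span 161.8 kb, and 3 of its 4 probes follow in order from the 5′ to the 3′ side, of which probe 1 was above background on no array, probe 2 on 2 A+/G+ arrays and probe 3 on all 3.
Dnah12 probe 1, chr14:27543025-27543084 (mm9, + strand): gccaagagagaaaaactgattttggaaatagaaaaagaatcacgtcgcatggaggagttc
Dnah12 probe 2, chr14:27586844-27586903 (mm9, + strand): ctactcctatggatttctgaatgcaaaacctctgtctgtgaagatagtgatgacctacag
Dnah12 probe 3, chr14:27702224-27702283 (mm9, + strand): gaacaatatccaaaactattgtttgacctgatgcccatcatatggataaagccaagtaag
Probe 1 had 3.01, 2.56 and 3.69 against 1.92, 1.95 and 1.97, probe 2 3.63, 3.96 and 4.56 against 2.05, 2.01 and 1.98 and probe 3 5.64, 5.76 and 6.30 against 2.09, 2.12 and 2.10. All 3 were at background throughout A-/G+, so probe 3, the one called, gives a change of at least 2.0-fold and probes 1 and 2 give no fold (adjusted p = 0.0903, 0.0155 and 0.00316 in limma for probes 1 to 3). In Ccdc114, Dnah6, Dnah8, Dnah10, Hydin and Iqca too, the 5′ probe was above background on no array and the 3′ probe on all 3 A+/G+ arrays. Spag17, Dnah9 and Rsph3a had it the other way round.

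The probes of Fam227b lie 20.3 kb apart, and both were called, so that gene is shown as a case in which separate stretches of the RNA were called in the same direction.
Fam227b 5′ probe, chr2:125829632-125829691 (mm9, - strand): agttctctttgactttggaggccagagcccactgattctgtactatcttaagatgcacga
Fam227b 3′ probe, chr2:125809364-125809423 (mm9, - strand): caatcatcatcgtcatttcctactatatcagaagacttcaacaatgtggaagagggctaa
The 5′ probe had 6.71, 5.80 and 6.56 against 1.87, 1.83 and 1.82. Both probes were at background throughout A-/G+, so the changes are at least 2.75-fold by the 5′ probe and at least 5.56-fold by the 3′ probe, whose values are given above.

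**Figure D3:**
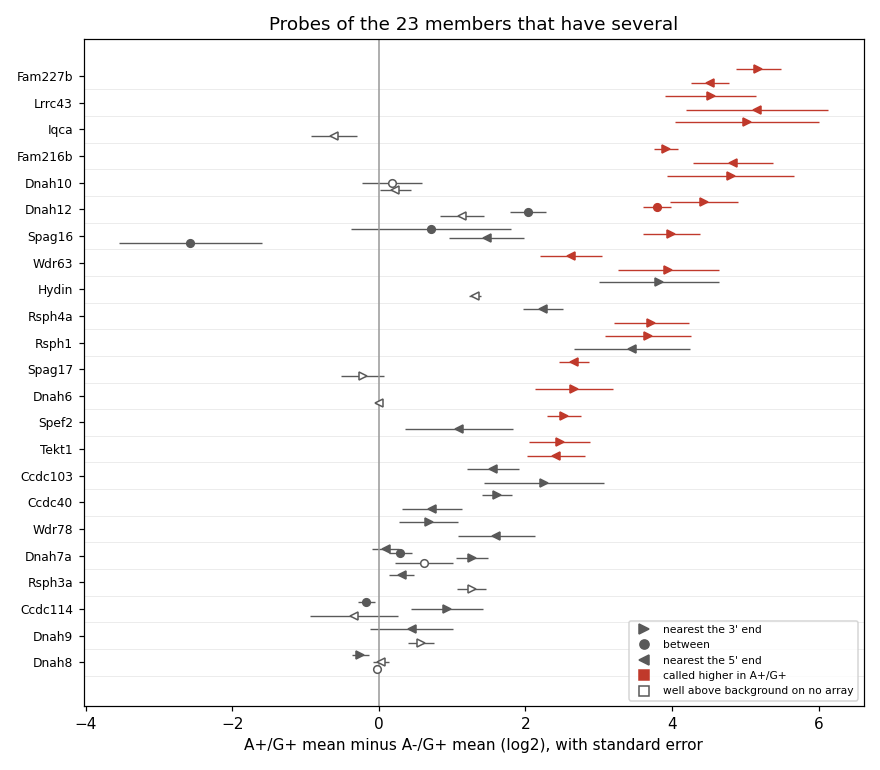
Difference between the fractions (A+/G+ mean minus A-/G+ mean, log2) with its standard error for each probe of the 23 members that have several; 1 Rsph3a probe on an unplaced sequence is left out. Triangles pointing right are the probes nearest the 3′ end and triangles pointing left those nearest the 5′ end, red marks called probes and open symbols probes above background on no array. Differences are as measured, also where arrays were at background, and are then only limits. All red probes lie at positive differences.

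Promoters of the members were searched because many of the genes were called in the same direction. RefSeq (GRCm38.p6) gave 48 windows for 45 of the genes, each from 250 bases before to 50 bases after a transcription start, and 32851 windows for all genes. The letters GTTGCC, the repeated unit of the X-box that RFX factors bind, were present on either strand in 20 of the 48 windows (41.7%), beside 12.5% of all windows. The share was 45.0% in the 20 windows of called genes and 40.7% in the 27 windows of genes not called. The exact X-box of 2 such units facing each other 2 bases apart, GTTGCCNNGGCAAC, was in 0 of the 48 windows and in 0.094% of all windows. With any base at the fourth place of each unit it was in 1 window, that of Iqca, beside 0.451% of all. Forms with other spacings or other letters were not searched, so these counts do not show that the windows lack an X-box. The forkhead core GTAAACA, the kind of site FOXJ1 binds, was in 3 windows (6.25%, those of Ak7, Mlf1 and Tekt3) beside 3.65% of all. No window was found for 1700007G11Rik, Armc4, Dnah3, Lrrc50, Lrrc6, Rsph1, Rsph4a and Wdr78.

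The last 130 bases before the start are shown for 6 genes, with GTTGCC or its reverse complement in capitals and, for Iqca, the whole loose X-box. Iqca, Fam227b, Lrrc43 and Tekt1 were called higher in A+/G+ and Spag16 and Tekt2 were not by their brightest probes, so that genes with and without a call can be set side by side.
Iqca, chr1:90153437-90153566 (GRCm38.p6, - strand): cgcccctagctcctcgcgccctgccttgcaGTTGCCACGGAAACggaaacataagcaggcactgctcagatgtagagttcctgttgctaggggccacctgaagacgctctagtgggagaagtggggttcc
Fam227b, chr2:126152005-126152134 (GRCm38.p6, - strand): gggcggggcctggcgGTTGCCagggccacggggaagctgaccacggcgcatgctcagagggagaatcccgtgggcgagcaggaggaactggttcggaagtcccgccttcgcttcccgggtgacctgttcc
Lrrc43, chr5:123489195-123489324 (GRCm38.p6, + strand): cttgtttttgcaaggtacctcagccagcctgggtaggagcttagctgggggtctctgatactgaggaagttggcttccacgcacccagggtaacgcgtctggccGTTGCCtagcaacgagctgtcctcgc
Tekt1, chr11:72361883-72362012 (GRCm38.p6, - strand): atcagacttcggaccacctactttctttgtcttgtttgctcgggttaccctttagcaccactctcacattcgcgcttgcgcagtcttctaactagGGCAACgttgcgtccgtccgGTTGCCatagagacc
Spag16, chr1:69826840-69826969 (GRCm38.p6, + strand): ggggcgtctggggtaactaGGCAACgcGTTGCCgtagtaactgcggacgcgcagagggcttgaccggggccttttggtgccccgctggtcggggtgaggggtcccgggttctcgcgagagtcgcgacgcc
Tekt2, chr4:126325689-126325818 (GRCm38.p6, - strand): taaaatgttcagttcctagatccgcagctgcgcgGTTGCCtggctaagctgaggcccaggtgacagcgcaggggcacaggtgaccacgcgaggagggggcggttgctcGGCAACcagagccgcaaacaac
Tekt1, Spag16 and Tekt2 hold the letters at 2 places. In Tekt1 the first lies 35 bases and the second 15 bases before the start, and in Spag16 the 2 units point away from each other. A match is a description of the letters and says nothing of binding in these cells.

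Genes outside the 53 show how far the pattern reached. Of 68 other axoneme genes on the array, 14 were called toward A+/G+ and 1 toward A-/G+. Their median difference was 1.51, or 1.31 with the 7 genes that no A-/G+ array held well above background at their bounds. Meig1 (4.50 ± 0.55 as measured, 1 A-/G+ array above background), Odf3b (4.13 ± 0.78) and the dynein light chain Dynlrb2 (3.80 ± 0.63) were among the called. Dynlrb2 was measured on all 6 arrays with medians 11.5-fold apart. The gene called the other way was Ccdc37, an axonemal protein, which was measured on all 6 arrays and differed by -2.04 ± 0.25 (adjusted p = 0.0153 in limma).

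The regulators of multiciliated cells were split, with a higher mean in A+/G+ for 12 of 17 and in A-/G+ for 5. Their differences ran from -0.82 to 5.45 as measured. For 8 of them every A+/G+ array lay above every A-/G+ array and for 2 the reverse held, beside 4493 and 5094 of all 22375 genes. Of 17 genes, 4 were called toward A+/G+ and 0 toward A-/G+, and the median difference was 0.78, or 0.26 with Ccdc78, not well above background in A-/G+, at its bound. Foxj1, the switch for motile cilia, lay at 9.83, 9.83 and 10.40 in A+/G+ and 6.83, 5.88 and 7.54 in A-/G+, a 7.99-fold change (adjusted p = 0.0216 in limma). Ccno and Cdc20b, which act when centrioles are multiplied, had 10.10, 10.09 and 10.89 against 7.86, 6.91 and 7.31 and 6.86, 6.81 and 7.73 against 2.43, 2.10 and 4.54. Both were called, with adjusted p of 0.0137 and 0.0374 in limma, and for Cdc20b 1 A-/G+ array was above background. Ccdc78, a protein of the structures on which centrioles form, had 3.91, 4.65 and 5.32 against 1.94, 1.89 and 2.63 with no A-/G+ array above background (adjusted p = 0.0337 in limma). Myb was not called but did not overlap, with 9.37, 9.18 and 9.74 against 6.97, 7.80 and 8.36 (adjusted p = 0.0651 in limma). Mcidas, which starts the multiciliated program, overlapped with 10.85, 10.51 and 10.68 against 12.43, 10.49 and 10.28. The RFX factors Rfx1, Rfx2, Rfx3 and Rfx4 were not called, and their differences ran from -0.82 to 0.98. For Rfx3 (6.54, 6.18 and 6.72 against 7.44, 6.96 and 7.46) and Rfx4 (10.51, 10.63 and 10.67 against 11.82, 11.70 and 10.77) every A-/G+ array lay above every A+/G+ array, with adjusted p of 0.0894 and 0.194 in limma. At an unadjusted p under 0.05 there were 7 regulators toward A+/G+ and 2, Rfx3 and Rfx4, toward A-/G+, beside 3829 and 3088 of all 22375 genes.

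Intraflagellar transport and primary cilium genes serve cells with a single non-motile cilium too. Of 51 such genes 46 were measured on all 6 arrays, and their median difference was 0.05. Limma called 0 in either direction, as did the methods' t-test, where limma called 2.77% of all genes toward A+/G+ and 0.42% toward A-/G+. At an unadjusted p under 0.05 there were 12 toward A+/G+ and 3 toward A-/G+, beside 3829 and 3088 of all 22375 genes. The adjusted p without the fold limit was passed by 3 and 1, beside 1765 and 1122 of all genes. The summed signal of the transport and primary cilium genes (linear scale) was 36311 to 39044 in A+/G+ and 32463 to 32995 in A-/G+, whereas that of the 51 axoneme members was 21839 to 34574 and 4820 to 7915.

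Markers of other cells moved with the axoneme genes in part. Of 10 ependymal markers listed as outside the axoneme, 5 were called higher in A+/G+ (Foxj1, Tmem212, Rarres2, Tm4sf1 and Fam183b) and 0 toward A-/G+. Foxj1 is counted among the regulators too, and the list was not checked for genes of axoneme proteins. The median difference was 2.77, while their summed signal was 30931 to 38711 in A+/G+ and 26633 to 35815 in A-/G+. Tmem212 had 8.56, 8.89 and 9.49 against 4.75, 4.44 and 4.58 (1 A-/G+ array above background) and Fam183b 11.97, 12.19 and 12.74 against 7.94, 6.63 and 9.02. Vim, the intermediate filament vimentin, was higher in A-/G+ without overlap, with 13.37, 13.44 and 13.61 in A+/G+ against 14.70, 14.76 and 13.87 (difference -0.97 ± 0.27, adjusted p = 0.103 in limma). At an unadjusted p under 0.05 there were 6 ependymal markers toward A+/G+ and 1 toward A-/G+, beside 3829 and 3088 of all 22375 genes. Of 15 choroid plexus markers limma called 0 in either direction, with 1 higher in each direction at an unadjusted p under 0.05, and Ttr had 15.02, 14.55 and 14.33 against 15.62, 14.37 and 15.35. The summed signal of the 15 choroid plexus markers was 35773 to 53289 in A+/G+ and 32458 to 72965 in A-/G+, so that signal of these genes was present in both fractions. The cells that this signal came from were not tested.

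Neuronal and oligodendrocyte markers are given for the same reason. Of 8 Purkinje cell markers 4 were called higher in A+/G+ (Pcp2, Pcp4, Calb1 and Car8), with a summed signal of 5596 to 14453 against 1881 to 2615, and Calb1 and Car8 were above background on no A-/G+ array. Without the fold limit, 5 Purkinje cell markers passed the p limit toward A+/G+ and 1 toward A-/G+. Of 8 oligodendrocyte lineage markers 2 were called higher in A+/G+ (Olig1 and Olig2), with a summed signal of 13672 to 16335 against 2262 to 4268. Without the fold limit, 3 oligodendrocyte lineage markers passed the p limit toward A+/G+ and 1 toward A-/G+. The latter was Mbp, a myelin protein (difference -0.79 ± 0.16, adjusted p = 0.0487 in limma). Of 9 astroglial markers 1 was called higher in A+/G+ (Gfap, difference 3.03 ± 0.40), with summed signals of 129959 to 208567 in A-/G+ against 148445 to 161201 in A+/G+. Without the fold limit, 3 astroglial markers passed the p limit toward A+/G+ and 1 toward A-/G+. The latter was Aldh1l1 (difference -0.64 ± 0.12, adjusted p = 0.0452 in limma). Of 8 granule cell lineage markers and 8 microglia and endothelial markers limma called 0. At an unadjusted p under 0.05, 1 and 1 went toward A+/G+ and 2 and 0 toward A-/G+, beside 3829 and 3088 of all 22375 genes. The summed signals were 18801 to 22271 and 8602 to 11006 in A+/G+ and 26385 to 31660 and 3008 to 8240 in A-/G+. The part of ependymal or other cells in the axoneme result was not tested.

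**Figure D4:**
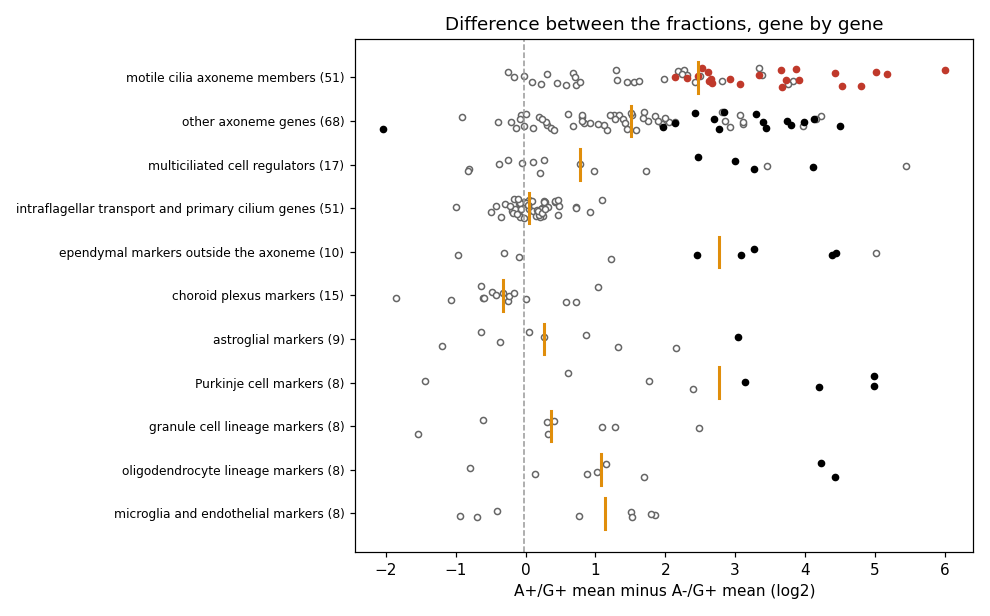
Difference between the fractions (A+/G+ mean minus A-/G+ mean, log2) of each gene in the axoneme set and in 10 other lists, with the number of genes in brackets. Filled points were called, orange bars are medians and the dashed line is the median of all 22375 genes (-0.03). The axoneme members have their median at 2.47, and the intraflagellar transport and primary cilium genes at 0.05.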

How the data were processed

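Gene expression was measured in 6 samples of sorted cells on Agilent 1-colour arrays. The authors deposited the spot intensity of every array, background-corrected by Feature Extraction 10.7.3.1. They also deposited quantile-normalized log2 values, with 38 empty cells, used here as an alternative. Probe positions and gene names are those of the array's mm9 annotation.

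After control spots and outlier spots were dropped, log2 intensities were quantile normalized over the 6 arrays, and repeated spots of a probe were averaged. Fractions were compared over 55681 probes with limma 3.58.1 in R 4.3.3, and the limits on p and fold are those of the study's methods, which used a t-test. Probes count as well above background by the scanner software's own flag, and bounds follow from the lowest signals with that flag. Values of genes are those of the brightest probe. All members are accounted for by role. Named with values for each array are members measured on all 6 arrays or not called but well above background on every A+/G+ array, and the 10 called members with the largest difference of medians. For completeness Spag6, Spag17 and Lrrc6 were named too, after their values were seen. Named of the other lists are Foxj1, Ttr, Atp1b2, Slc1a3 and called regulators, and the remaining list genes named were chosen after their values were seen. The members and lists were chosen with earlier results of these data known. Motifs were searched on both strands of RefSeq promoters, and protein sequences were not used here. Alternatives were other normalizations, background corrections, filters, tests and limits, the mean of all probes, the authors' table, the replicate block and the omission of each array. The fit was tested on simulated data. The number of arrays, 3 a fraction, limits the precision. The result of 1 marker gene is not reported here.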

Additional observations from a re-analysis of the deposited data

How the results depend on the processing

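The sign of the median difference of member genes held under every alternative run, and no alternative called a member gene higher in A-/G+. The median difference was 2.47 and fell to 1.28 with normexp background correction and to 1.71 with dim signals at the array's floor, also chosen after seeing the data. Member genes called higher in A+/G+ numbered 22, against 9 with normexp, 9 with the methods' t-test, and 10 among probes well above background on all 6 arrays, a filter chosen after seeing the data. Member probes called higher in A+/G+ numbered 30, against 12, 13 and 11. All probes called higher in A+/G+ numbered 851, against 234, 487 and 247, and 2589 with no fold limit and 1797 with a 2-fold limit. All probes called higher in A-/G+ numbered 222, against 938 with the 75th percentile shift, 48 with normexp, 121 with the methods' t-test, 2583 with no fold limit and 1340 with a 2-fold limit. Other axoneme genes called numbered 14, against 7 with normexp, 22 with the filter on dim probes, 4 with the methods' t-test, 26 with no fold limit, 25 with a 2-fold limit and 7 among probes measured on all 6 arrays. Of the multiciliated cell regulators 4 were called, against 1 with the methods' t-test, 6 with the mean of all probes and 2 among probes measured on all 6 arrays. Intraflagellar transport and primary cilium genes had 0 calls, against 3 with no fold limit and 1 with a 2-fold limit. The cause of these changes was not tested, beyond the fewer probes or looser limits that the settings themselves set.

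Of the 22 called members, 9 kept their call with normexp, 9 with the methods' t-test, 20 with the 75th percentile shift and 22 in the authors' table. With the replicate block, the pairing of equal replicate numbers, 0 members, 0 probes of any kind and 0 genes of the other axoneme and regulator lists were called, and the smallest adjusted p among the members was 0.0630. The labels do not say whether equal numbers pair the samples. The deviations of equally numbered samples correlated at 0.20, 0.11 and -0.11 over 17944 probes. Of the 3 numbers, 1 had its own partner as the best in both fractions. With 3 arrays a fraction, these correlations can neither show nor exclude a pairing.

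Leaving out each array in turn gave 5 to 30 member genes and 8 to 38 member probes called higher in A+/G+, 0 to 0 member genes and 0 to 1 member probes called higher in A-/G+, and medians from 2.14 to 2.67. It gave 340 to 1458 of all probes higher in A+/G+ and 77 to 490 higher in A-/G+, 1 to 22 other axoneme genes, 0 to 5 regulators and 0 to 0 intraflagellar transport genes.

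In 5 genes, none of them called, the sign of the difference changed: Tekt3 to -0.76 with the 75th percentile shift, Ccdc114 to 0.14 with the mean of all probes, and, over the arrays left out in turn, Dnah9 ran from -0.14 (without A-/G+ replicate 2) to 0.85, Spag16 from -0.34 (without A-/G+ replicate 2) to 1.70, and Iqcg from -0.10 (without A-/G+ replicate 2) to 0.85, with -0.02 without A+/G+ replicate 3 and -0.09 without A-/G+ replicate 3. Signal over background limits the dim members, above all on A-/G+ replicates 1 and 2.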
